A study of Mus musculus with 12 samples.

Results

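The genes described here are 10 cyclins and cyclin-dependent kinases of the cell cycle. They are the D-type cyclins Ccnd1, Ccnd2 and Ccnd3, the E-type cyclins Ccne1 and Ccne2, the A-type cyclin Ccna2, the B-type cyclins Ccnb1 and Ccnb2, and the kinases Cdk1 and Cdk2. They were chosen by symbol and not by their values, and all 10 were found among the 46983 genes of the table, of which 27138 were above 0 in at least 1 library. All 10 also passed the filter on low values and were among the 18023 genes tested.

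The samples were C2C12 cells, a mouse myoblast line whose cells divide in growth medium, and on differentiation stop dividing and fuse to form myotubes. RNA was sequenced from wild type cells (WT, named the PB-IP group after the vector) and from PPARγ/+ cells, which carried the coding sequence of PPARγ in the PiggyBac vector PB-IP and had been selected with puromycin, on 0d and on 5d of differentiation. Each of the 4 groups had 3 libraries and there were 12 in all. Both the deposited design and the study call the overexpression inducible, the design calls the controls uninduced, and the study describes positive clones selected with puromycin. An inducing agent, and whether a line was 1 clone, were not given in the sources used here. The study calls the libraries of a group biological replicates, while the labels do not say whether these came from separate cultures, and p-values measure the spread between these libraries.

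Cyclins are the regulatory subunits of cyclin-dependent kinases, and the kinases of the cell cycle depend on a bound cyclin for their activity. D-type cyclins act with Cdk4 and Cdk6 in G1, E-type cyclins with Cdk2 at the start of S phase, cyclin A2 with Cdk2 and then Cdk1 through S phase and G2, and B-type cyclins with Cdk1 in mitosis. In skeletal muscle, withdrawal from the cell cycle precedes fusion, and cyclin D3 is known as the D-type cyclin that stays on in differentiated muscle cells.

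Values are FPKM, the fragments on a gene scaled to its exonic length and to the mapped fragments of the library. An order or a share between different genes therefore rests on the lengths used. The libraries held 18581300 to 26073154 mapped fragments, and a gene of the 10 was covered by 63 to 8082 fragments in a library. Pparg, the gene that was overexpressed, had an FPKM between 27.98 and 92.69 in the 6 PPARγ/+ libraries and between 3.12 and 7.56 in the 6 WT libraries. Within the WT cells 2 libraries stood apart in their muscle markers. Of 6 myotube genes (Myog, Mymk, Myh3, Ckm, Acta1 and Tnnt3), the summed FPKM was 102.9 in WT replicate 2 on 0d against 9.88 and 15.1 in the other 2, and 896.2 in WT replicate 3 on 5d against 3045 and 3973. All 6 myotube genes were up-regulated on 5d in both cell types. Of 6 adipocyte genes (Adipoq, Plin1, Fabp4, Cidec, Lep and Cfd), all were under 0.1 FPKM in every WT library, while their sum was 2.90 to 5.04 in PPARγ/+ cells on 0d and 13.3 to 67.2 on 5d, with Lep listed at 0 in all libraries.

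From 0d to 5d, WT cells lost most of their S phase and mitotic cyclin transcripts and gained Ccnd3. A gene was called changed between days where its p-value, not adjusted, was 0.05 or less and the change reached 2-fold, the thresholds of the study. By that rule 7 of the 10 genes were down-regulated in WT cells (Ccnd1, Ccne1, Ccne2, Ccna2, Ccnb1, Ccnb2 and Cdk1), where 7.53% of all genes tested were called lower, and 1 was up-regulated (Ccnd3), where 8.94% were called higher. In PPARγ/+ cells the same 7 genes were down-regulated, against 6.06% of all genes tested, and none of the 10 was up-regulated, against 9.11%. The median change on the log2 scale over the 10 genes was -1.94 for WT and -1.38 for PPARγ/+ cells, beside -0.081 and -0.095 over all genes tested. Both WT libraries that stood apart were also left out together, an alternative chosen after seeing the data, and 8 of the 10 genes were then still called in WT cells. Fewer dividing cells and fewer transcripts per cell cannot be told apart in these bulk samples.

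**Figure D1:**
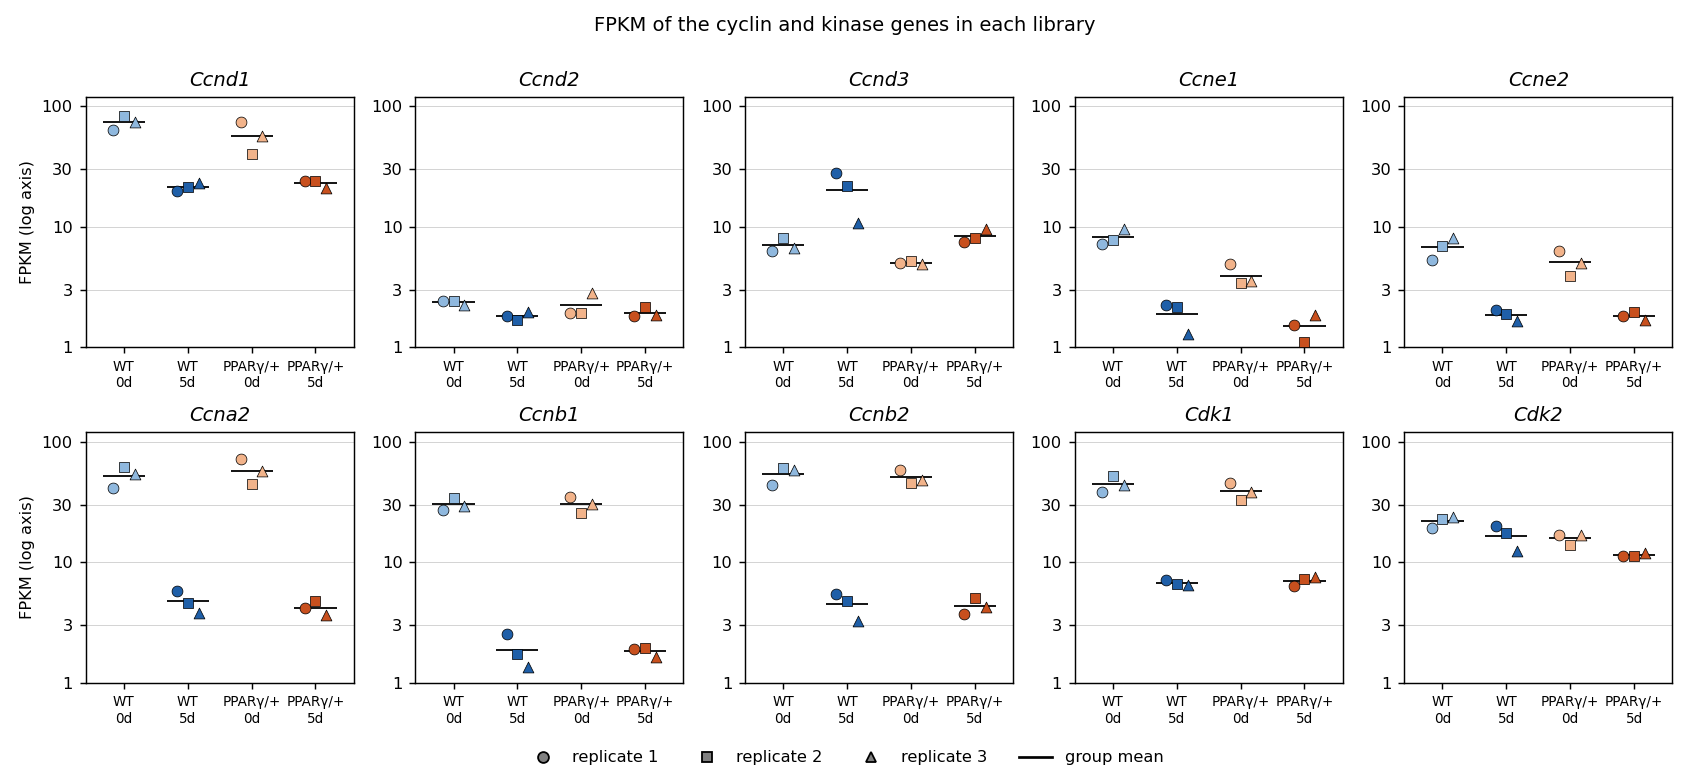
FPKM (log axis) of the 10 genes in each of the 12 libraries. Each symbol is 1 library, its shape gives the replicate and the horizontal line is the group mean. The A-type and B-type cyclins and Cdk1 were lower in every library on 5d than in any on 0d, whereas Ccnd3 reached 28.1 in WT cells on 5d and at most 9.52 in PPARγ/+ cells.

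The B-type cyclins, which activate Cdk1 for entry into mitosis, fell the furthest of the 10 genes together with Ccna2. In WT cells Ccnb1 was at 26.9, 34.3 and 29.2 FPKM on 0d and at 2.54, 1.72 and 1.35 on 5d. In PPARγ/+ cells it was at 35.0, 25.6 and 30.2 on 0d and at 1.92, 1.94 and 1.65 on 5d. Every library on 5d was far below every library on 0d, and the mean left on 5d was 6.21% of that on 0d in WT cells and 6.07% in PPARγ/+ cells. The fitted change in log2(FPKM + 0.1) was -3.98 (SE 0.23, adjusted p = 0.000205) in WT cells and -3.96 (SE 0.13, adjusted p = 1.53e-05) in PPARγ/+ cells.

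Ccnb2 had the higher FPKM of the B-type cyclins in all 12 libraries. That order rests on exonic lengths of 4217 bases for Ccnb1 and 1541, which was inferred, for Ccnb2. By fragments Ccnb1 was ahead in every library except WT replicate 2 on 5d (140 against 142). In WT replicate 1 on 0d Ccnb1 had 2198 fragments and Ccnb2 1300. Ccnb2 was at 43.5, 60.9 and 57.6 FPKM in WT cells on 0d and at 5.40, 4.78 and 3.25 on 5d. In PPARγ/+ cells it was at 58.6, 45.2 and 48.1 on 0d and at 3.72, 5.04 and 4.23 on 5d. The groups did not overlap in either cell type, and the log2 change of Ccnb2 was -3.58 (SE 0.22, adjusted p = 0.00022) in WT and -3.52 (SE 0.14, adjusted p = 1.61e-05) in PPARγ/+ cells. Ccnb1 made up 33.7 to 38.6% of the B-type cyclin FPKM in the 6 libraries on 0d and 26.5 to 34.0% in the 6 on 5d, and their sum was 70.4 FPKM or more on 0d and 7.94 or less on 5d. Ccnb1-ps and Ccnb2-ps, annotated pseudogenes that may share reads with their parent genes, had at most 0.854 and 0.784 FPKM in any library.

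Ccna2, the cyclin of S phase and G2, was at 41.2, 61.0 and 53.5 FPKM in WT cells on 0d and at 5.80, 4.59 and 3.76 on 5d. In PPARγ/+ cells it was at 71.2, 44.5 and 57.0 on 0d and at 4.16, 4.76 and 3.65 on 5d. Its log2 change was -3.43 (SE 0.20, adjusted p = 0.000213) in WT and -3.73 (SE 0.18, adjusted p = 2.69e-05) in PPARγ/+ cells, and the groups did not overlap. The exons of Ccna2 overlap those of Exosc9, on the other strand, over 510 bases, and the library kit does not mark strand.

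Cdk1, the kinase that drives mitosis, kept more of its transcript than its cyclins did. It was at 38.1, 51.5 and 43.5 FPKM in WT cells on 0d and at 7.08, 6.59 and 6.53 on 5d, and in PPARγ/+ cells at 45.2, 32.6 and 37.9 on 0d and at 6.35, 7.20 and 7.55 on 5d. The groups did not overlap, and the mean on 5d was 15.2% of that on 0d for WT and 18.2% for PPARγ/+ cells. On the log2 scale the change was -2.69 (SE 0.12, adjusted p = 0.000163) and -2.43 (SE 0.13, adjusted p = 3.41e-05).

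Cdk2, the kinase of the E-type cyclins and of cyclin A2, was not called in either cell type. In WT cells it was at 19.1, 22.9 and 23.7 FPKM on 0d and at 19.8, 17.4 and 12.3 on 5d, and the days overlapped. In PPARγ/+ cells it was at 16.6, 13.8 and 16.7 on 0d and at 11.2, 11.3 and 11.95 on 5d, without overlap. The log2 change was -0.43 (95% interval -0.88 to 0.026, adjusted p = 0.123) in WT cells and -0.44 (95% interval -0.65 to -0.24, adjusted p = 0.00579) in PPARγ/+ cells, which is short of 2-fold. The order of the kinases differed between the days. Cdk1 had 1.83 to 2.71 times the FPKM of Cdk2 in the 6 libraries on 0d and 0.357 to 0.639 times in the 6 on 5d.

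**Figure D2:**
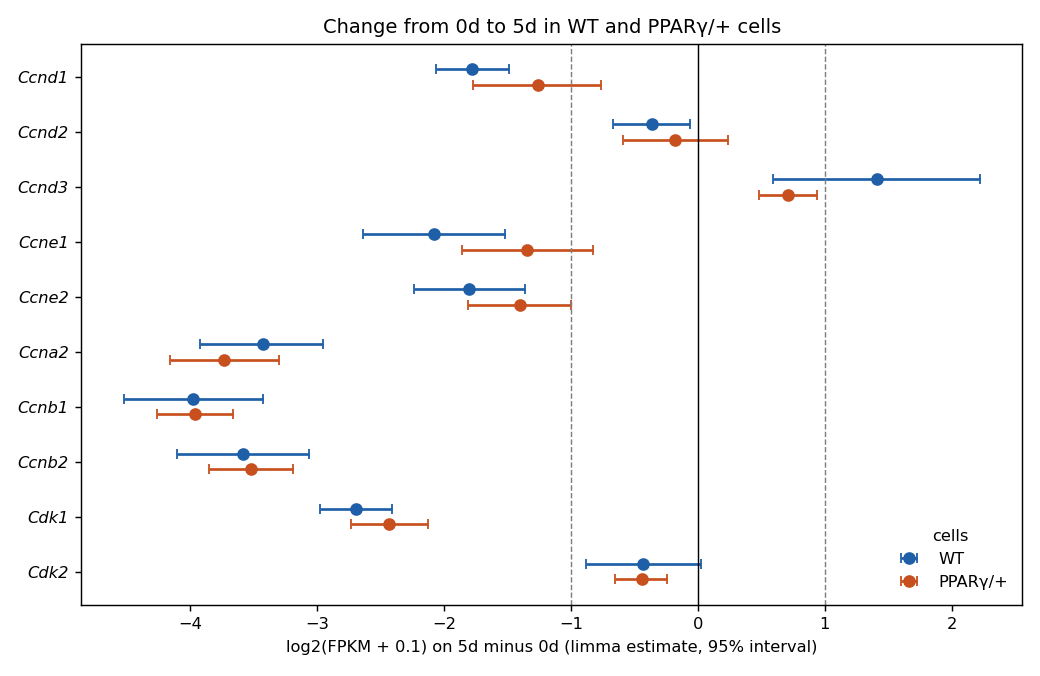
Change of each gene from 0d to 5d in log2(FPKM + 0.1), in WT cells (blue) and PPARγ/+ cells (orange). Points are the estimates of limma over 3 libraries per day with 95% intervals, and the dashed lines mark a 2-fold change. Ccnb1 lies at -3.98 and -3.96, and Ccnd3 is the single gene to the right of 0.

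Promoters of these genes are shown because the A-type and B-type cyclins and Cdk1 fell in both cell types while Cdk2 was not called. The RefSeq table (GRCm38.p6) held the promoters of 6 of the 10 genes, each from 250 bases before the transcription start to 50 after it, and none was matched for Ccnd1, Ccnd2, Ccne2 and Ccna2. Capitals mark CCAAT (the letters of the NF-Y site), TTTGAA or TTCGAA (the letters of the cell cycle homology region, CHR) and TTTCCCGC, TTTCGCGC, TTTGCCGC or TTTGGCGC (forms of the E2F site), each searched on both strands, and no marked stretch overlapped another. The windows were chr13:100786437-100786736 for Ccnb1, chr9:70421505-70421804 for Ccnb2, chr10:69352863-69353162 for Cdk1 and chr10:128705002-128705301 for Cdk2, all on the minus strand and written 5′ to 3′.
Ccnb1: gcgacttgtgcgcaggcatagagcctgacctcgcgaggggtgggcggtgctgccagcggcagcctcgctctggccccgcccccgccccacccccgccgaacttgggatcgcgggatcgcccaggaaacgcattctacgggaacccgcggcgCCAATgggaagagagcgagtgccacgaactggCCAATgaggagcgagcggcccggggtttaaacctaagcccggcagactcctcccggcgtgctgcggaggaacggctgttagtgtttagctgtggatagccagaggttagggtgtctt
Ccnb2: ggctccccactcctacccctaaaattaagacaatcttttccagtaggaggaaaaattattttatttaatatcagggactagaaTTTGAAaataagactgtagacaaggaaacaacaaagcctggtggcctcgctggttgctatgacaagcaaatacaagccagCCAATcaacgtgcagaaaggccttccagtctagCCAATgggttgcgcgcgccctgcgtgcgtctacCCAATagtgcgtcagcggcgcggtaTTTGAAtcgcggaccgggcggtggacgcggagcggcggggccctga
Cdk1: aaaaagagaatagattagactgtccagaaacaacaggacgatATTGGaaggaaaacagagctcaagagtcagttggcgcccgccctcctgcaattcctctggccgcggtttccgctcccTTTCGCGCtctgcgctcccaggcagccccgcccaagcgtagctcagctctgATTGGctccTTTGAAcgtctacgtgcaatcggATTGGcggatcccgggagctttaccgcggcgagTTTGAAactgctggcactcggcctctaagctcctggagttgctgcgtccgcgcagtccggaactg
Cdk2: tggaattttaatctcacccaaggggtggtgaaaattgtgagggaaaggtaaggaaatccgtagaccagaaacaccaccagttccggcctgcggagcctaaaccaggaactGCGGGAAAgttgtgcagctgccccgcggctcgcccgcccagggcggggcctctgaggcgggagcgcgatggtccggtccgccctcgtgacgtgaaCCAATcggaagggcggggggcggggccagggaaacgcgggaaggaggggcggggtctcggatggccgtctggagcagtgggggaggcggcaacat

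Positions count from +1 at the start of transcription, with -1 just before it. The Ccnb1 window held CCAAT at -99 and -67, and that of Ccnb2 held it at -87, -54 and -21. In the Cdk1 window CCAAT was on the opposite strand at -208, -80 and -48. CCAAT stood at 2 or more places in 11.7% of the 32851 promoter windows listed and at 3 or more in 3.37%, so the Ccnb2 and Cdk1 windows were among the few with 3. The CHR letters stood at -167 and +5 in Ccnb2 and at -71 and -15 in Cdk1, and 2.54% of all windows held them at 2 or more places. The Ccnb1 window held none of these CHR letters and no E2F form. E2F letters stood at -131 in Cdk1 and, on the opposite strand, at -140 in Cdk2, and 2.26% of all windows held at least 1. The Cdk2 window held CCAAT once, at -45, as 37.4% of all windows did at least once, and no CHR letters. The window of Ccne1 (chr7:38107441-38107740, minus strand), a gene that was also down-regulated in both cell types, held none of the letters searched.

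The E-type cyclins, which bring Cdk2 into action at the start of S phase, were low on 0d and fell less than the mitotic genes. Ccne1 was at 7.18, 7.70 and 9.56 FPKM in WT cells on 0d and at 2.23, 2.16 and 1.29 on 5d. The PPARγ/+ libraries were at 4.86, 3.39 and 3.53 on 0d and at 1.54, 1.10 and 1.84 on 5d. No library on 5d reached any on 0d within a cell type, and the change was -2.08 (SE 0.23, adjusted p = 0.00122) in WT cells and -1.35 (SE 0.22, adjusted p = 0.00249) in PPARγ/+ cells. With 1 added to the FPKM in place of 0.1, the change in PPARγ/+ cells was -0.98 and the call ended.

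Ccne2 was at 5.25, 6.95 and 8.12 FPKM in WT cells on 0d and at 2.02, 1.88 and 1.65 on 5d. The PPARγ/+ libraries were at 6.25, 3.94 and 5.04 on 0d and at 1.84, 1.97 and 1.68 on 5d. Its log2 change was -1.80 (SE 0.18, adjusted p = 0.000878) in WT and -1.40 (SE 0.17, adjusted p = 0.000763) in PPARγ/+ cells, with no overlap between the days. Ccne1 made up 52.6 to 57.8% of the E-type FPKM in WT cells on 0d and 41.1 to 46.2% in PPARγ/+ cells on 0d, so the cell types did not overlap in this share, and it spanned 35.8 to 53.4% in the 6 libraries on 5d. The exons of Ccne2 overlap those of Ints8 on the other strand over 609 bases.

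The D-type cyclins, which link growth signals to the G1 kinases, did not move as a group. Ccnd1 was the highest of the 10 genes in WT cells on 0d, at 63.7, 83.6 and 74.3 FPKM, and was at 19.6, 21.5 and 23.0 on 5d. The PPARγ/+ libraries were at 74.6, 39.9 and 56.4 on 0d and at 23.8, 23.9 and 21.0 on 5d. Its log2 change was -1.78 (SE 0.12, adjusted p = 0.000263) in WT and -1.26 (SE 0.21, adjusted p = 0.00289) in PPARγ/+ cells, without overlap of the days. On 0d its 3 PPARγ/+ libraries were spread over a wider range than the WT libraries, with a standard deviation of 30.5% of the mean against 13.4%, and on 5d Ccnd1 was still at 19.6 FPKM or more in every library. Its exons share 1100 bases with those of LTO1 on the other strand.

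Ccnd2 was the lowest of the 10 genes by mean FPKM in WT cells on both days and in PPARγ/+ cells on 0d. It was at 2.43, 2.44 and 2.23 in WT cells on 0d and at 1.81, 1.68 and 1.96 on 5d, and in PPARγ/+ cells at 1.91, 1.94 and 2.83 on 0d and at 1.80, 2.16 and 1.84 on 5d. The WT days did not overlap but the difference was small, -0.36 on the log2 scale (95% interval -0.67 to -0.062, adjusted p = 0.0627), and in PPARγ/+ cells the days overlapped (-0.18, 95% interval -0.59 to 0.24, adjusted p = 0.445). Among the 10 genes, 8 had lower libraries on 5d than on 0d without overlap in WT cells and 8 in PPARγ/+ cells, where 30.9% and 34.4% of all genes tested did.

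Ccnd3 was the 1 gene of the 10 with a positive change in either cell type. It was at 6.32, 8.13 and 6.70 FPKM in WT cells on 0d and at 28.1, 21.7 and 10.8 on 5d, so that all 3 libraries on 5d were above those on 0d while WT replicate 3 on 5d was well under the other 2. The PPARγ/+ libraries were at 5.03, 5.16 and 4.92 on 0d and at 7.51, 8.04 and 9.52 on 5d, again without overlap, where 20.2% of all genes tested were higher without overlap in WT and 23.8% in PPARγ/+ cells. The change was 1.41 (SE 0.34, adjusted p = 0.0197) in WT cells, where Ccnd3 was called up-regulated, and 0.71 (SE 0.097, adjusted p = 0.0012) in PPARγ/+ cells, where it stayed short of 2-fold. In WT cells the call, which uses the unadjusted p, held at each of the 6 libraries left out in turn, with changes between 1.12 and 1.80. The adjusted p by limma was 0.0747 and 0.0719 without WT replicates 1 and 3 on 0d. It was 0.075 without WT replicate 2 on 5d, and 0.0673 with no filter on low values. The exons of Ccnd3 share 361 bases with those of Bysl on the other strand, and Ccnd3-ps, an annotated pseudogene, had at most 0.156 FPKM.

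Ccnd3 has 2 start sites in the RefSeq table, at chr17:47504801-47505100 and chr17:47593217-47593516 on the plus strand, and their windows are shown since Ccnd3 was the gene that moved the other way. The capitals are as above.
Ccnd3 upstream start: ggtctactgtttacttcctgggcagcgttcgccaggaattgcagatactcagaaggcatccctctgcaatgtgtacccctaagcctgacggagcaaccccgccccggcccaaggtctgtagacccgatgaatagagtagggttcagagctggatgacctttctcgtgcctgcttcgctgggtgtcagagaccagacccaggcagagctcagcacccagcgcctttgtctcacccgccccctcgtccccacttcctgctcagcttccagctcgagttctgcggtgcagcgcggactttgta
Ccnd3 downstream start: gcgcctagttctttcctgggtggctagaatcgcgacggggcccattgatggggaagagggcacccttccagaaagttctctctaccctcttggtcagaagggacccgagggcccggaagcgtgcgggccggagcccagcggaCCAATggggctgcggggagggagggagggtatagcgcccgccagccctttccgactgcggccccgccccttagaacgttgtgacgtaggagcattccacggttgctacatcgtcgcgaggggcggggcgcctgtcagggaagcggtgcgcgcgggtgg
The upstream window held none of the letters searched, and the downstream window held CCAAT at -108 and nothing else. Neither held CANNTG, the letters of the E-box that myogenic factors such as MyoD bind, which 72.3% of all windows held at least once. The windows of Ccnb1, Ccnb2 and Ccne1 held none either, and those of Cdk1 and Cdk2 held 1 each, at -181 and -126. FPKM per gene do not tell which start was used, and a link between the letters and the change of Ccnd3 was not tested.

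The make-up of the D-type cyclins differed between the days. Ccnd1 accounted for 87.9 to 89.3% of the D-type FPKM in WT cells on 0d and 84.9 to 91.5% in PPARγ/+ cells on 0d. On 5d it accounted for 39.6 to 64.3% in WT cells and 64.9 to 71.9% in PPARγ/+ cells. The share of Ccnd3 was 8.05 to 8.71% in WT cells on 0d and 56.7, 48.3 and 30.2% in replicates 1, 2 and 3 on 5d. In PPARγ/+ cells it was 6.17 to 11.0% on 0d and 22.7 to 29.4% on 5d. By FPKM, Ccnd3 exceeded Ccnd1 in WT replicates 1 and 2 on 5d and in no other library. That order rests on exonic lengths of 8775 bases for Ccnd3 and 4709 (annotated) or 3835 (inferred) for Ccnd1. By whole fragments, with the inferred length, Ccnd3 also exceeded Ccnd1 in 2 further libraries on 5d. These were WT replicate 3 (2165 against 2010) and PPARγ/+ replicate 3 (1553 against 1500). The log2 ratio of Ccnd3 to Ccnd1 was -3.39 ± 0.0729 (SD, n = 3) in WT cells on 0d and -0.19 ± 0.82 (SD, n = 3) on 5d, which differ by 3.20. The PPARγ/+ ratios were -3.45 ± 0.474 (SD, n = 3) and -1.46 ± 0.278 (SD, n = 3), which differ by 1.99. Each difference between the days had p = 0.1 in the two-sided exact permutation test, which is the smallest p-value that 3 libraries against 3 can give.

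**Figure D3:**
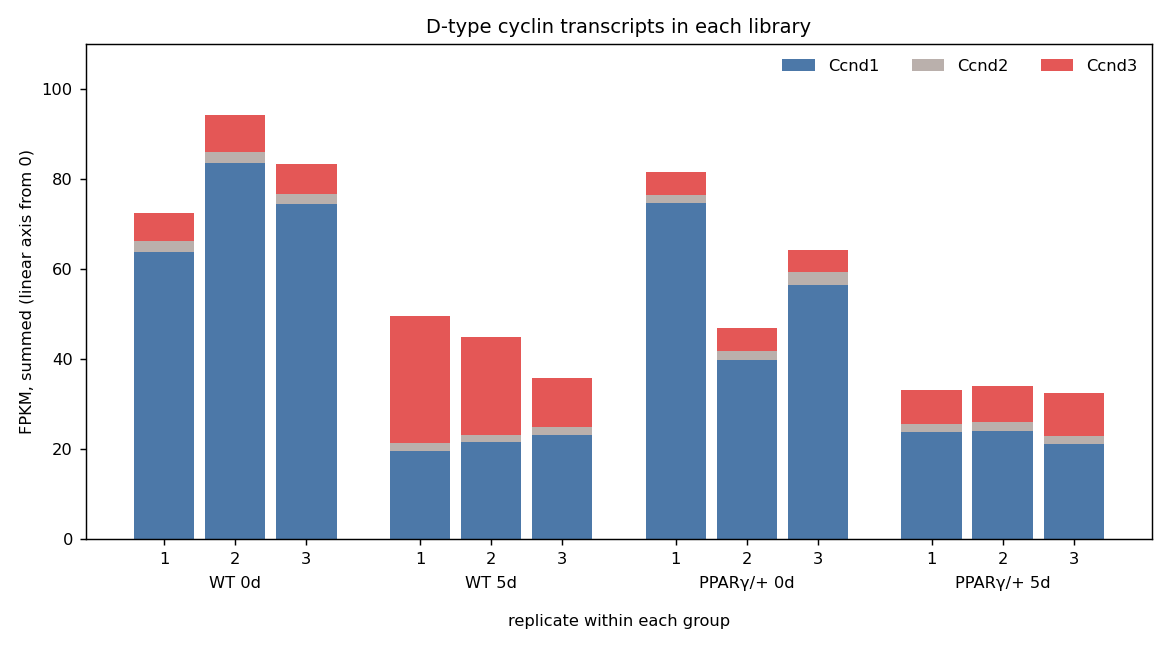
Summed FPKM of the 3 D-type cyclins in each library, as stacked bars from 0 on a linear axis, with the replicates of each group side by side. The sum dropped from 72.5 to 94.1 FPKM to between 35.8 and 49.5 in WT cells, and Ccnd3 (red) made up 30.2 to 56.7% of it in WT cells on 5d.

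Over all 8 cyclins, the sum was 196.4 to 265 FPKM in WT cells and 169.6 to 257.3 in PPARγ/+ cells on 0d, and 47.1 to 67.5 and 45.5 to 48.9 on 5d. D-type cyclins held 34.5 to 36.9% of it in WT cells on 0d and 73.3 to 76.0% on 5d, and in PPARγ/+ cells 27.7 to 31.7% and 69.7 to 71.5%. The order of the 10 genes by mean FPKM changed with it. In WT cells on 0d Ccnd1 led with every library above those of Ccnb2, and Ccnb2, Ccna2 and Cdk1 followed, of which Ccnb2 and Ccna2, and Ccna2 and Cdk1, overlapped between libraries. In PPARγ/+ cells on 0d Ccna2, Ccnd1 and Ccnb2 led, and neighbours among these overlapped. On 5d Ccnd1 led in both cell types. In WT cells it was followed by Ccnd3 and Cdk2, with neighbours overlapping, and in PPARγ/+ cells by Cdk2 and then Ccnd3, where each library of Ccnd1 was above those of Cdk2 and each of Cdk2 above those of Ccnd3.

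Between the cell types on 0d, Ccne1 was the gene of the 10 that differed most. Here a call needed an adjusted p of 0.05 or less and a change that reached 2-fold. Ccne1 was lower in PPARγ/+ cells, at a mean of 3.93 ± 0.816 FPKM (SD, n = 3) against 8.15 ± 1.25 (SD, n = 3) in WT cells, with no overlap and a log2 difference of -1.04 (SE 0.18, adjusted p = 0.0379). It was the 1 gene of the 10 called, where 1.23% of all genes tested were called lower and 0.361% higher. The call rested on the setting: with 1 added to the FPKM the difference was -0.90, and with no filter on low values the adjusted p was 0.0908. It was also lost when any 1 of WT replicates 1, 2 and 3 or PPARγ/+ replicates 2 and 3 was left out, with differences between -1.13 and -0.92 and adjusted p-values from 0.0768 to 0.142, and it held without PPARγ/+ replicate 1, at -1.20. The sum of the 6 adipocyte genes also differed on 0d, with 2.90 FPKM or more in PPARγ/+ and 0.0794 or less in WT libraries. Of the 5 myoblast markers 3 were called lower in PPARγ/+ cells on 0d, Myf5 at -1.58, Des at -1.41 and Cdh15 at -2.15, and Myod1 and Vim were not called. Of the 5, 4 had a negative difference and 1 a positive one. The summed FPKM of the 5, at 1548 to 1581 beside 1393 to 1574 in the WT libraries, was mostly Vim. Vim was at 1484 to 1494 in the PPARγ/+ and 1244 to 1341 in the WT libraries on 0d. None of the 3 proliferation markers was called, with Mki67 at -0.056, Top2a at -0.16 and Pcna at -0.75 (adjusted p = 0.0476, short of 2-fold). The part of these markers in the Ccne1 difference was not tested.

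Ccnd3 and Cdk2 were also lower in every PPARγ/+ library than in any WT library on 0d, by less than 2-fold. The log2 difference was -0.47 (SE 0.11, adjusted p = 0.072) for Ccnd3 and -0.48 (SE 0.12, adjusted p = 0.0864) for Cdk2. Thus 3 of the 10 genes were lower without overlap, where 13.1% of all genes tested were. The mitotic genes lay close together in both cell types on 0d: the 95% interval of the difference was -0.34 to 0.35 for Ccnb1, -0.48 to 0.30 for Ccnb2, -0.38 to 0.66 for Ccna2 and -0.58 to 0.18 for Cdk1. The log2 ratio of Ccnd3 to Ccnd1 differed by -0.06 between the cell types on 0d (two-sided exact permutation p = 0.7).

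On 5d none of the 10 genes was called between the cell types by limma, where 0.155% of all genes tested were. At an unadjusted p of at most 0.05, 2 of the 10 passed (Ccnd3 and Cdk2), beside 12.7% of all genes tested, and no gene of the 10 was called with voom on whole fragments. Ccnd3 was lower in all 3 PPARγ/+ libraries, at 8.36 ± 1.05 FPKM (SD, n = 3) against 20.2 ± 8.71 (SD, n = 3), a log2 difference of -1.16 (95% interval -2.02 to -0.31, adjusted p = 0.28). Cdk2 was lower as well, with a log2 difference of -0.49 (95% interval -0.92 to -0.064, adjusted p = 0.343), and these 2 were the genes of the 10 that were lower without overlap, beside 8.31% of all genes tested. Ccnb1, Ccnb2, Ccna2 and Cdk1 differed by 0.015, -0.026, -0.15 and 0.06, with intervals reaching no further than -0.60 and 0.59. The log2 ratio of Ccnd3 to Ccnd1 was lower in PPARγ/+ cells, with a difference of -1.27 at the smallest p possible (0.1, two-sided exact permutation test). It was 0.517, 0.0105 and -1.09 in WT replicates 1, 2 and 3, and WT replicate 3 lay just above the highest PPARγ/+ library, at -1.14.

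The Ccnd3 result on 5d moved with the WT library that stood apart. Without WT replicate 3 on 5d the log2 difference of Ccnd3 was -1.56 (adjusted p = 0.012) and it was called, and 723 genes were called in all in place of 28. Without WT replicate 1 on 5d it was -0.87 (adjusted p = 0.486) and not called. WT replicate 3 on 5d had 10.8 FPKM of Ccnd3 and a myotube gene sum of 896.2 FPKM, which is just under the range of the PPARγ/+ libraries on 5d for the myotube sum (922.9 to 1086) and above theirs for Ccnd3 (7.51 to 9.52). The other 2 WT libraries had Ccnd3 at 21.7 and 28.1 and a myotube sum of 3045 and 3973. Across all 12 libraries the genes whose FPKM followed that of Ccnd3 most closely were Bin1 (Pearson r = 0.984), Jph2 (r = 0.979) and Dnajb5 (r = 0.978), as a description over libraries that share their groups. The part of the muscle markers in the Ccnd3 difference was not tested.

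**Figure D4:**
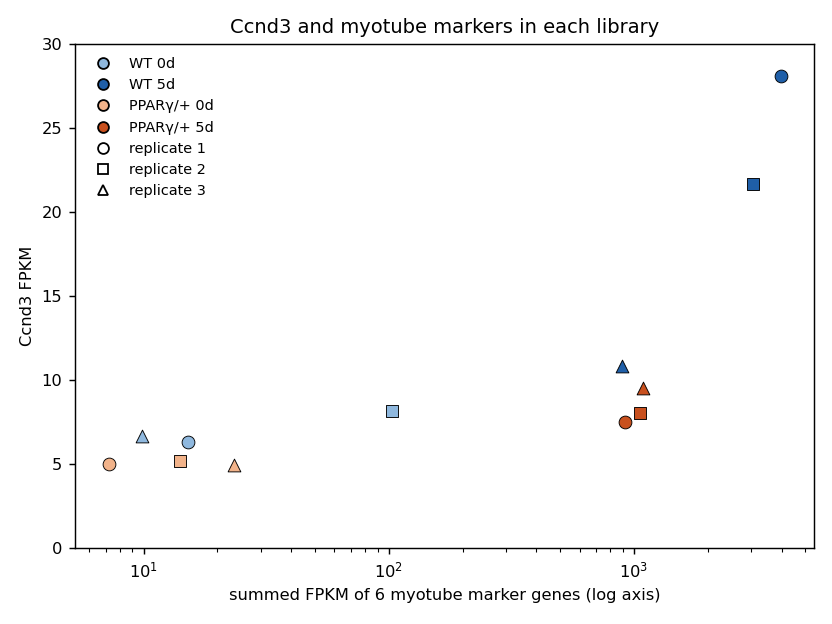
Ccnd3 FPKM (linear axis) against the summed FPKM of 6 myotube genes (log axis) in each of the 12 libraries, with the group shown by colour and the replicate by shape. WT replicate 3 on 5d (896.2 and 10.8) lies beside the PPARγ/+ libraries on 5d, and WT replicates 1 and 2 on 5d lie apart at the upper right.

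The interaction of cell type and day, fitted over all 12 libraries and called at an adjusted p of 0.05 or less, asks whether the step from 0d to 5d was of another size in PPARγ/+ cells. By limma none of the 10 genes passed, where 0.760% of all genes tested did, and none had an unadjusted p of 0.05 or less, which 2164 of the 18023 genes tested had. With voom on whole fragments none passed either. The PPARγ/+ change less the WT change was 0.73 for Ccne1 (95% interval -0.0067 to 1.47, adjusted p = 0.42), 0.51 for Ccnd1 (-0.06 to 1.09, adjusted p = 0.477) and -0.69 for Ccnd3 (-1.52 to 0.13, adjusted p = 0.514). For Ccnb1 it was 0.013 (-0.59 to 0.62) and for Ccnb2 0.061 (-0.54 to 0.66). With 1 library left out in turn the interaction of Ccnd3 lay between -1.09 and -0.40, and it was -0.40 (adjusted p = 0.634) without WT replicate 1 on 5d. Without WT replicate 3 on 5d it was -1.09 (adjusted p = 0.0159) and passed, when 527 genes passed in all in place of 137. With both outlying WT libraries left out it was -1.19 (adjusted p = 0.0104), when 488 genes passed.

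Across the 12 libraries Ccna2, Ccnb1, Ccnb2 and Cdk1 had correlations of their FPKM between 0.992 and 0.998 with each other, over libraries that share their days and groups. Within groups, as deviations from the group means, they were still between 0.569 and 0.906. The genes closest to Ccna2 over the 12 libraries were Ect2, Pbk and Cenpa, those closest to Ccnb1 were Hmmr, Kif20a and Dlgap5, those closest to Ccnb2 were Plk1, Kif2c and Mxd3, and those closest to Cdk1 were Cep128 and Zwilch, with r from 0.998 to 0.999, out of 11661 genes with a mean of at least 1 FPKM. Ccne2 was closest to Dtl, Hells and Atad5 and Ccnd1 to Pola1, Cand1 and Hmgb1, with r between 0.989 and 0.995. For Ccnd2 and Cdk2 the nearest genes were less close, Atf7ip at 0.858 and Nptx1 at 0.968.

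The other genes of the pathway were taken from lists. Of 5 genes in the list of partners of the D-type cyclins and further cell cycle cyclins, Ccna1 and Ccnb3 were too low to be tested. Cdk4, the main kinase of the D-type cyclins, was at a mean of 101.8 FPKM on 0d and 50.9 on 5d in WT cells (log2 change -1.01, adjusted p = 0.000991, called) and at 79.6 and 50.8 in PPARγ/+ cells (-0.65, adjusted p = 0.000419, short of 2-fold). Cdk6 fell in WT cells from 5.99 to 2.63 FPKM (-1.15, adjusted p = 0.00777), while in PPARγ/+ cells it was at 3.31 and 3.19 (-0.035, adjusted p = 0.871). The interaction of Cdk6 was 1.11 with an adjusted p of 0.107, so the difference was not called. Ccnf, the cyclin F of a ubiquitin ligase, fell in both, with log2 changes of -2.58 and -2.60.

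Of the 6 genes that activate the kinases, Cdc25b and Cdc25c fell in both cell types. These phosphatases and Cdc25a remove the inhibitory phosphates from Cdk1 and Cdk2. Cdc25a was called in WT cells, at a log2 change of -1.02, and was short of 2-fold in PPARγ/+ cells, at -0.59 (adjusted p = 0.00577), with an interaction of 0.42 that was not called (adjusted p = 0.394). Cdc25c had log2 changes of -3.68 (SE 0.26) in WT and -3.80 (SE 0.12) in PPARγ/+ cells, beside -3.98 and -3.96 for Ccnb1. Cdk7, Ccnh and Mnat1, the subunits of the CDK-activating kinase, were not called, with log2 changes between -0.34 and 0.18. Both genes of the kinases that add the inhibitory phosphates were down-regulated in both cell types. The log2 changes were -1.13 and -1.29 for Wee1 and -2.11 and -2.02 for Pkmyt1.

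Of 7 CDK inhibitor genes 5 were tested, and Cdkn2a and Cdkn2b were listed at 0 in every library. Cdkn1a, which encodes the inhibitor p21, was at 84.6, 78.8 and 50.7 FPKM in WT cells on 0d and at 480.9, 418.7 and 188.6 on 5d. The PPARγ/+ libraries were at 67.95, 86.2 and 87.4 on 0d and at 164.5, 173.5 and 162.3 on 5d. It rose in both cell types, by 2.27 (SE 0.39, adjusted p = 0.00553) and 1.06 (SE 0.10, adjusted p = 0.000323), and as with Ccnd3 the lowest WT library on 5d was replicate 3. By limma none of the 5 inhibitor genes tested, Cdkn1a among them, was called for the interaction of cell type and day. Cdkn2c and Cdkn2d, which encode inhibitors of Cdk4 and Cdk6, fell in both, with log2 changes of -1.29 and -1.62 for Cdkn2c and -1.26 and -1.90 for Cdkn2d. Cdkn1b, which encodes p27, was not called, at -0.057 (SE 0.16) in WT cells and -0.1 (SE 0.08) in PPARγ/+ cells.

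Among 13 genes of CDK adaptors and cyclin turnover, 9 were down-regulated in WT cells and the same 9 in PPARγ/+ cells, and none was up-regulated. They were Cks1b and Cks2, the small subunits bound to the kinases, Skp2, a receptor of the SCF ubiquitin ligase, Cdc20 and Fzr1, the activators of the anaphase-promoting complex that degrades B-type cyclins, its inhibitor Fbxo5, its ubiquitin-conjugating enzymes Ube2c and Ube2s, and Cdca3. Cdc20 changed most, by -3.96 (SE 0.12) in WT cells and -4.08 (SE 0.16) in PPARγ/+ cells, and Fzr1 by -1.16 and -1.17. Fbxw7, which targets cyclin E, and Ambra1, which targets D-type cyclins, were not called, with changes of 0.53 and 0.14 for Fbxw7 and -0.19 and -0.29 for Ambra1.

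Of 19 genes of transcription factors that act on cyclin genes, 6 were down-regulated and none up-regulated in either cell type, and the 6 were shared. Foxm1, a factor of the mitotic genes, had log2 changes of -3.27 in WT and -3.31 in PPARγ/+ cells. Mybl2, whose product joins the MuvB core complex, had -3.51 and -2.51, and of that core Lin9 had -1.68 and -1.78 and Lin54 -1.58 and -1.36. The repressor E2f7 had -3.30 and -3.02 and the repressor E2f8 -1.66 and -1.33. None of the 19 genes, Mybl2 among them, was called for the interaction of cell type and day. The NF-Y subunits Nfya, Nfyb and Nfyc, which bind CCAAT, were not called, with changes between -0.71 and -0.13. Nfyb was lower but short of 2-fold, at -0.71 (adjusted p = 0.00285) in WT and -0.50 (adjusted p = 0.00451) in PPARγ/+ cells. Nfyc was too, at -0.58 (adjusted p = 0.0087) and -0.52 (adjusted p = 0.000457). On 0d E2f2 was the 1 gene of this list called between the cell types, lower in PPARγ/+ cells at 1.20 FPKM against 5.13 (log2 difference -2.01, adjusted p = 0.0161). The medians of this list on the log2 scale were -0.56 and -0.42 from 0d to 5d, nearer to those of all genes than the medians of the adaptors and turnover genes, -1.60 and -1.57.

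**Figure D5:**
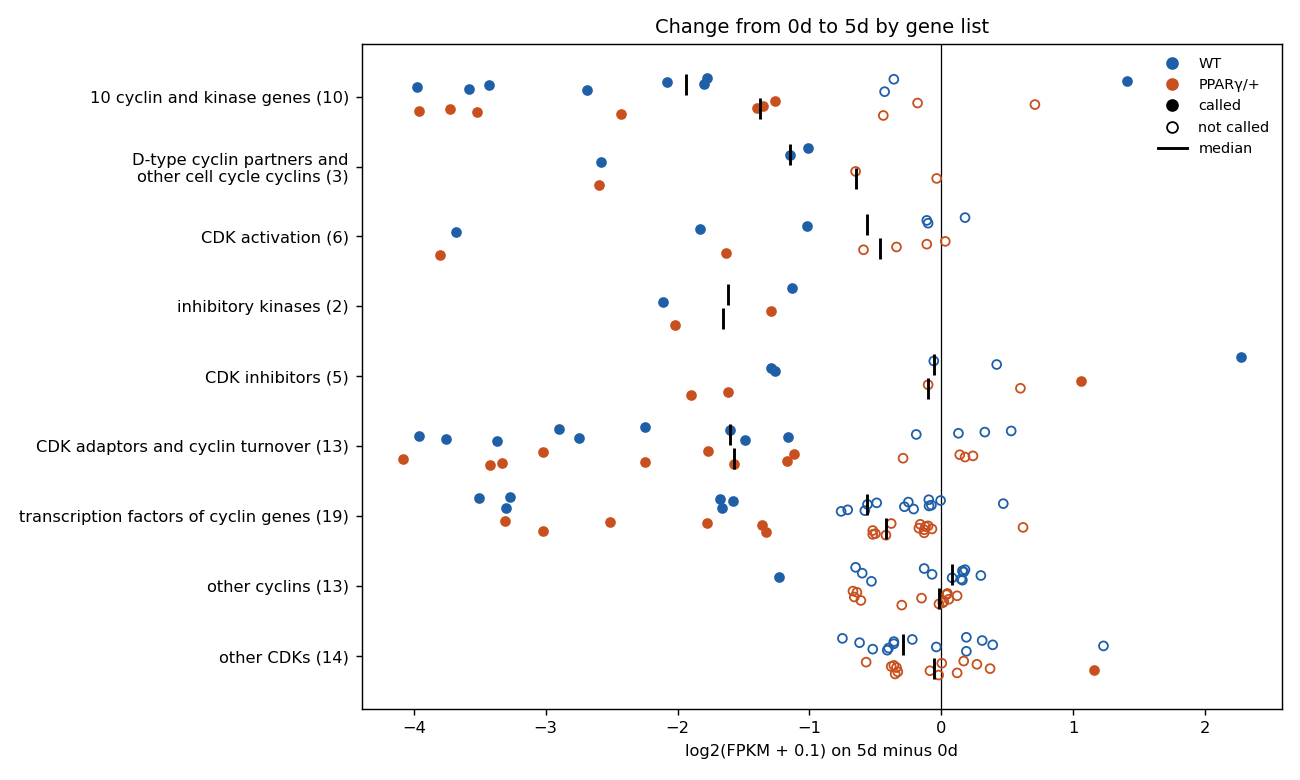
Change from 0d to 5d in log2(FPKM + 0.1) of the 10 genes and of each gene list, in WT cells (blue) and PPARγ/+ cells (orange), with the number of genes tested in parentheses. Filled points were called, open points were not, and black lines are medians. Most genes of the other cyclins and other CDKs lie within 1 of 0, whereas 9 of 13 adaptor and turnover genes lie below -1.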

How the data were processed

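RNA of C2C12 cells was sequenced as paired-end libraries made with the TruSeq RNA LT v2 kit, which does not mark strand. The authors used Trim Galore for trimming, STAR for alignment to Ensembl GRCm38 and HTSeq for counting, and deposited the FPKM of each gene, while the labels name mm9. A second deposited table holds log2(FPKM + 1), which differed from the first by at most 5.3e-14, and was not used further. Any 2 libraries differed at 21594 genes or more. Gene positions and lengths are those of GENCODE on GRCm38, and 46488 genes had a symbol.

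Mapped fragments per library were recovered from the smallest step of the FPKM (18581300 to 26073154), and whole fragments of a gene from FPKM times length times mapped fragments. The annotated length gave whole numbers within 0.01 for 21224 expressed genes. For 6 of the 10 genes it gave whole numbers within 0.02, and for the other 4 the length was inferred. Fragments were used for depth and for an added alternative, limma with voom.

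Tests used limma 3.58.1 (empirical Bayes with a trend, R 4.3.3) on log2(FPKM + 0.1) of genes that reached 0.1 FPKM in 3 or more libraries, so a fold change is on that scale and understates that of low genes. Each comparison of 2 groups was fitted on its own 6 libraries and the interaction on all 12. Adjusted p-values are Benjamini-Hochberg values over all 18023 genes. The log2 ratio of Ccnd3 to Ccnd1 was compared by two-sided exact permutation tests (scipy), 4 in all. The steps were tested on simulated data. Alternatives were another pseudocount, other filters, median-ratio scaling, quantile normalization, a replicate block, 1 fit of all libraries, the other kind of p-value and each library left out.

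The 10 genes were fixed by symbol and the gene lists were written from general knowledge, both with earlier results of these data known. The text names the 10 genes, list genes called in at least 1 comparison with up to 4 that were not called per list, and up to 3 genes nearest to each of the 10 by Pearson r, of which 1 is not reported here. Promoters are from RefSeq (GRCm38.p6), matched by symbol for 6 of the 10 genes.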

Additional observations from a re-analysis of the deposited data

Results flagged for a closer look

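1 gene of the lists had a change from 0d to 5d that differed between the cell types by the interaction test of limma, which 0.760% of all genes tested passed. With many genes in the lists, 1 gene is not read as a trait of the lists. Myf5, a transcription factor of myoblasts, was at 11.3, 13.2 and 11.6 FPKM in WT cells on 0d and at 5.96, 3.53 and 3.79 on 5d, and in PPARγ/+ cells at 3.66, 4.25 and 3.96 on 0d and at 5.58, 6.27 and 8.47 on 5d. The PPARγ/+ change less the WT change was 2.20 on the log2 scale (adjusted p = 0.00844), while none of the 10 cyclin and kinase genes was called by that test. Single outlying libraries within the groups of 3 were not tested for.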

How the results depend on the processing

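In WT cells 8 of the 10 genes were called between 0d and 5d under every alternative run, also without the libraries that stood apart, and in PPARγ/+ cells 7, except 6 with 1 added to the FPKM. Between the cell types on 0d the count of 1 fell to 0 with 1 added to the FPKM, with no filter and with the replicate block, and lay between 0 and 1 when libraries were left out. On 5d it was 1 with unadjusted p-values and between 0 and 1 when libraries were left out, and for the interaction between 0 and 1, and 1 without both outlying WT libraries. The cause was not tested. Same-numbered libraries deviated from their group means with correlations between -0.07 and 0.08 and not every library correlated best with its own number, so the numbers gave no pairing, and the replicate block, with 0 genes called on 0d (Ccne1 at -1.04, adjusted p = 0.183), changed no other call of the 10 genes. Differences near 0 changed sign. For Ccnb1 they were -0.038 (median-ratio scaling), -0.0068 (quantile normalization) and -0.0013 (fragments with voom) on 0d, -0.022 and -0.021 (the 2 normalizations) on 5d, and for the interaction -0.00022 (1 added), -0.015 (quantile normalization) and -0.28 (both outlying WT libraries left out, with Ccnb2 at -0.24). With libraries left out in turn, the range was -0.27 to 0.0026 for Ccnd2 from 0d to 5d in PPARγ/+ cells. On 0d it was -0.024 to 0.31 for Ccna2, -0.11 to 0.12 for Ccnb1, -0.24 to 0.0073 for Ccnb2 and -0.32 to 0.15 for the log2 ratio of Ccnd3 to Ccnd1. On 5d it was -0.092 to 0.048 for Ccne2, -0.30 to 0.0024 for Ccna2, -0.18 to 0.25 for Ccnb1 and -0.24 to 0.12 for Ccnb2. For the interaction it was -0.18 to 0.25 for Ccnb1, -0.15 to 0.21 for Ccnb2 and -0.21 to 0.13 for Cdk2. Over all genes, the calls between the days were 2970 in WT and 2735 in PPARγ/+ cells, against 1441 and 1241 with 1 added to the FPKM, and 1806 in PPARγ/+ cells with a filter at 1 FPKM. On 0d there were 287, against 115 with 1 added, 107 with no filter, 0 with the block, 661 with unadjusted p-values and 55 to 137 with a library left out. On 5d there were 28, against 8 with 1 added, 71 with 0.01 added, 0 with the block, 199 in a fit of all libraries, 606 with unadjusted p-values, 9 with voom and 1 to 723 with a library left out. For the interaction there were 137, against 61 with the block, 75 with voom, 488 without both outlying WT libraries and 42 to 527 with a library left out. With median-ratio scaling the median over all genes was 0.023 in place of -0.081 in WT cells and 0.021 in place of -0.095 in PPARγ/+ cells, and the sign of every called change of the 10 genes was the same.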

Other observations

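Cyclins and kinases outside the core of the cell cycle are described by 2 further lists. Of 14 other cyclin genes 13 were tested, and Ccnjl was too low. Ccno was down-regulated in WT cells, from a mean of 1.64 FPKM on 0d to 0.708 on 5d (log2 change -1.23, adjusted p = 0.0395), and was at 2.34 and 1.52 in PPARγ/+ cells (-0.61, adjusted p = 0.0636). The other 12 were not called in either cell type, among them Ccnt1, the cyclin of the elongation kinase Cdk9 (0.082 in WT cells and 0.019 in PPARγ/+ cells), Ccnc, the cyclin of the Mediator kinases (-0.65 and -0.67), and Ccng1, a target of p53 (-0.13 and -0.64). The medians of the list were 0.082 and -0.018, beside -0.081 and -0.095 over all genes tested.

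Of 14 other CDK genes none was called in WT cells by limma at 2-fold and a p-value, not adjusted, of 0.05 or less, and Cdk15 was up-regulated in PPARγ/+ cells. Cdk15 was at a mean of 0.485 FPKM on 0d and 1.27 on 5d in WT cells (log2 change 1.23, adjusted p = 0.114) and at 0.624 and 1.53 in PPARγ/+ cells (1.16, adjusted p = 0.0127), and its interaction was -0.072 (adjusted p = 0.974). Cdk8, a Mediator kinase, fell short of 2-fold in both, at -0.75 and -0.57, and Cdk5, which is bound by activators that are not cyclins, was at 0.19 and 0.17. The medians of the list were -0.29 and -0.053. Of the 3 proliferation markers, Mki67, Top2a and Pcna were down-regulated in both cell types, Mki67 with a change of -3.37 in WT cells and -3.53 in PPARγ/+ cells.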
